A study of Rattus norvegicus with 28 samples.

Results

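The genes described here are the heat shock proteins and chaperonins of the rat lung, with the co-chaperones named after them. They were chosen by gene symbol. The symbols begin with Hsp followed by a, b, d, e, h or 9, with Dnaja, Dnajb or Dnajc and a digit, or with Cct and a digit from 2 to 8, or they are Bag1 to Bag6 or Tcp1. Hspa5 and Dnajb9, which belong with the endoplasmic reticulum stress genes, were left out, and a mean of at least 10 normalised reads over the 28 libraries was required. Of 17002 genes in the deposited table, 74 had a matching symbol and 73 reached that mean. All 73 entered the test across genes, which covered 14908 genes. Dnajc6, with a mean of 2.72 normalised reads, was the matching gene left outside, and the lowest means inside were those of Hspd1-ps2 (11.5), Cct8l1 (26.4) and Dnajb3 (38.6). By name the 73 members comprised 34 J-domain genes, 10 Cct genes (the 8 subunits of the cytosolic ring, with Cct6b and Cct8l1), 10 HSP70 and HSP110 genes, 8 genes with small heat shock protein names, 5 BAG genes, 3 HSP90 genes, the 2 mitochondrial chaperonin genes and 1 Hspd1 pseudogene. Hspa8 and Hspa1b were not found in the table under those symbols and were not analysed here.

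The libraries were made from the right upper lobe of the lung, frozen, 1 Sprague Dawley rat each, as poly(A) RNA libraries that keep the strand. The study asked how breaths of varying size, called noisy ventilation, compare with volume-controlled ventilation (VCV), in which each breath has the same tidal volume, in healthy and in injured lungs. Acutely injured lungs were ventilated in noisy mode (acute_noisy, 4 rats) or by VCV (acute_VCV, 3 rats), and lungs without prior injury likewise (healthy_noisy, 3 rats, and healthy_VCV, 4 rats). Chronically injured lungs were also ventilated in noisy mode (chronic_noisy, 3 rats) or by VCV (chronic_VCV, 3 rats). The reference groups were unventilated: control_chronic (5 rats) was taken 14 days after chronic injury was induced, and control_blank (3 rats) came from healthy animals. The labels do not say how either injury was made, how long ventilation lasted, or the age or sex of the rats. No unventilated group with acute injury was analysed here, so acute_noisy and acute_VCV were set against control_blank, where injury and ventilation act together, and against the healthy lungs ventilated in the same mode. Whole lobe was sequenced, so fewer cells of a type and less RNA per cell cannot be told apart in any result.

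Molecular chaperones bind unfolded or newly made proteins and help them reach or regain their shape. HSP70 proteins do this in cycles of ATP use that J-domain proteins start and nucleotide exchange factors, among them HSP110 and BAG proteins, complete, while HSP90 acts later on client proteins such as kinases and receptors. Chaperonins are barrels that enclose their substrate: HSPD1 with its lid HSPE1 in mitochondria, and the CCT ring, which folds actin and tubulin, in the cytosol. When misfolded protein builds up, heat shock factor 1 binds inverted repeats of a short element in promoters and induces a subset of these genes, of which Hspa1a is the classic example.

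The RefSeq promoter table (GRCr8) gave windows of 300 bases, 250 before to 50 after each start, for 57 of the 73 members by symbol. They were searched on both strands for heat shock elements of 13 bases, made of 3 alternating units with any 2 bases (N) between them: GAA, NN, TTC, NN, GAA, or its reverse complement TTC, NN, GAA, NN, TTC. A match stood in 5 members, Hsph1, Dnaja1, Hspd1, Hspe1 and Cct4, and in 267 of all 33469 windows (0.798%). The windows are shown because these members recur in the results below and because Hspe1 and Hspd1, which point away from each other, share theirs. Capitals mark the matches, and the sequences read along the plus strand. In Hspe1 (chr9:64084077-64084326) the capitals hold 2 overlapping matches, which start 65 and 60 bases before its start, and the shared 211 bases (chr9:64084077-64084287) put the same matches 242 and 237 bases before the start of Hspd1. The Hsph1 match starts 36 bases before the start of the gene (chr12:10427118-10427367). Those of Dnaja1 (chr5:60638405-60638433) and Cct4 (chr14:101193074-101193102) lie 10 and 26 bases after it, and only the surrounding stretch is shown.
Hspe1: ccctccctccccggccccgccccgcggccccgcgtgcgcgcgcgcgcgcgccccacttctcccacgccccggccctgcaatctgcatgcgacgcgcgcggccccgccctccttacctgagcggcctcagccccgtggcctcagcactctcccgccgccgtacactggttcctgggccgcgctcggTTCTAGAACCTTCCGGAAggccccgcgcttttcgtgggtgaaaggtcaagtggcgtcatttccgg
Hsph1: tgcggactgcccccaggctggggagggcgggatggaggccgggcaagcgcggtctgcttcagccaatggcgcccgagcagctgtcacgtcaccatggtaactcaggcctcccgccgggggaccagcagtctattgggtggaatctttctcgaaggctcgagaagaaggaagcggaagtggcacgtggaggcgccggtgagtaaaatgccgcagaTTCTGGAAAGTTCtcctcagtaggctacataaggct
Dnaja1: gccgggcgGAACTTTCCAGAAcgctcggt
Cct4: gcgtcgctTTCTGGAAGGTTCgtggaggc
These matches describe letters in fixed windows and are not evidence of binding, and a window without one says nothing of the factor. Members without a window were not searched. The absence of a match here does not show that a member, such as Hspa1a, was searched.

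Depth ran from 6024093 to 31923838 reads per library. It was 28800053 to 31923838 in acute_VCV and 22277745 to 30960809 in control_blank, and 6024093 to 22967405 in the other groups. The library titles carry numbers whose first 2 digits fall into 4 series, and the labels do not say what these stand for. Series 12 holds acute_VCV and control_blank whole, and series 18 holds control_chronic whole. Chronic_noisy, acute_noisy_047, acute_noisy_050 and 3 of the 4 healthy_VCV libraries are in series 14. Healthy_noisy, chronic_VCV, acute_noisy_046, acute_noisy_053 and healthy_VCV_062 are in series 15. Only acute_VCV against control_blank therefore compares whole groups of 1 series; in the other comparisons with unventilated lungs, in acute_noisy against acute_VCV and in acute_VCV against healthy_VCV, number series and group cannot be told apart. The 73 members took 0.793% to 1.51% of all normalised reads in acute_noisy libraries, 0.995% to 1.23% in acute_VCV, and 0.59% to 0.905% in the other 6 groups except control_blank_016, which stood at 0.929%. Within acute_noisy 1 library of series 14, acute_noisy_047, was the highest of its group for 40 of 73 members (54.8%, against 28.9% of all tested genes), while the other, acute_noisy_050, was the highest for 9 (12.3%, against 20.7%). Between the 2 series within acute_noisy, series 15 minus series 14, the members' median log2 difference was -0.303, against -0.017 over all tested genes. Within healthy_VCV, the other group with both series, it was -0.037, against 0.003.

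A member was called when its Benjamini-Hochberg adjusted p, from limma over all 14908 genes, was below 0.05. Differences are on the log2(normalised reads + 1) scale, given with their standard error. In acute_VCV against control_blank, 30 of 73 members were higher and 13 lower, where 20.6% of all tested genes were higher and 16.7% lower (37.3% either way). Members thus were called higher more often than the background, and their median log2 difference was 0.304 against 0.065 over all genes. Acute_noisy against control_blank gave 18 higher and 18 lower members, against a background of 31.3% higher and 28.4% lower (59.8% either way), so here the members' share was below it. Healthy lungs ran the other way. In healthy_VCV against control_blank 5 members were higher and 34 lower (background 29.3% and 28.1%, or 57.4% either way), with a member median of -0.421 against -0.027, and without control_blank_016 the count called fell to 23. In healthy_noisy against control_blank 2 were higher and 18 lower (background 17.5% and 14.6%, or 32.1% either way), with 11 called without healthy_noisy_029 and 10 without control_blank_016. Injured lungs were also set against healthy lungs ventilated in the same mode. Between acute_VCV and healthy_VCV 41 members were higher and 11 lower (background 26.1% and 26.4%, or 52.5% either way), with medians of 0.529 against -0.01. Between acute_noisy and healthy_noisy 32 were higher and 8 lower (background 12.9% and 13.9%, or 26.7% either way), with medians of 0.358 against 0.009. That count was less steady: 22 to 25 members were called without acute_noisy_047, acute_noisy_050 or healthy_noisy_029, 20 without healthy_noisy_061, and 1 when the series 15 libraries of both groups were compared alone. A fit of just these 2 groups called 0 by limma, and 41 members had an unadjusted p under 0.05, and edgeR on the recovered reads called 41.

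Chronically injured lungs were set against control_chronic. Chronic_VCV against control_chronic gave 4 higher and 6 lower (background 6.89% and 7.9%, or 14.8% either way), and 5 or 6 called without chronic_VCV_067, chronic_VCV_069, control_chronic_113 or control_chronic_116. Chronic_noisy against control_chronic gave 9 higher and 16 lower (background 19.1% and 18.1%, or 37.2% either way), which fell to 10 called without chronic_noisy_084. Under quantile normalisation this split was 8 higher and 23 lower. Both shares lay near their background. Control_chronic against control_blank, with no ventilation on either side, gave 0 higher and 10 lower members (background 9.3% and 5.55%, or 14.9% either way). The 10 became 3 to 6 when control_chronic_113, control_chronic_114, control_chronic_115, control_chronic_117 or control_blank_021 was left out, and 1 without control_blank_016.

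**Figure D1:**
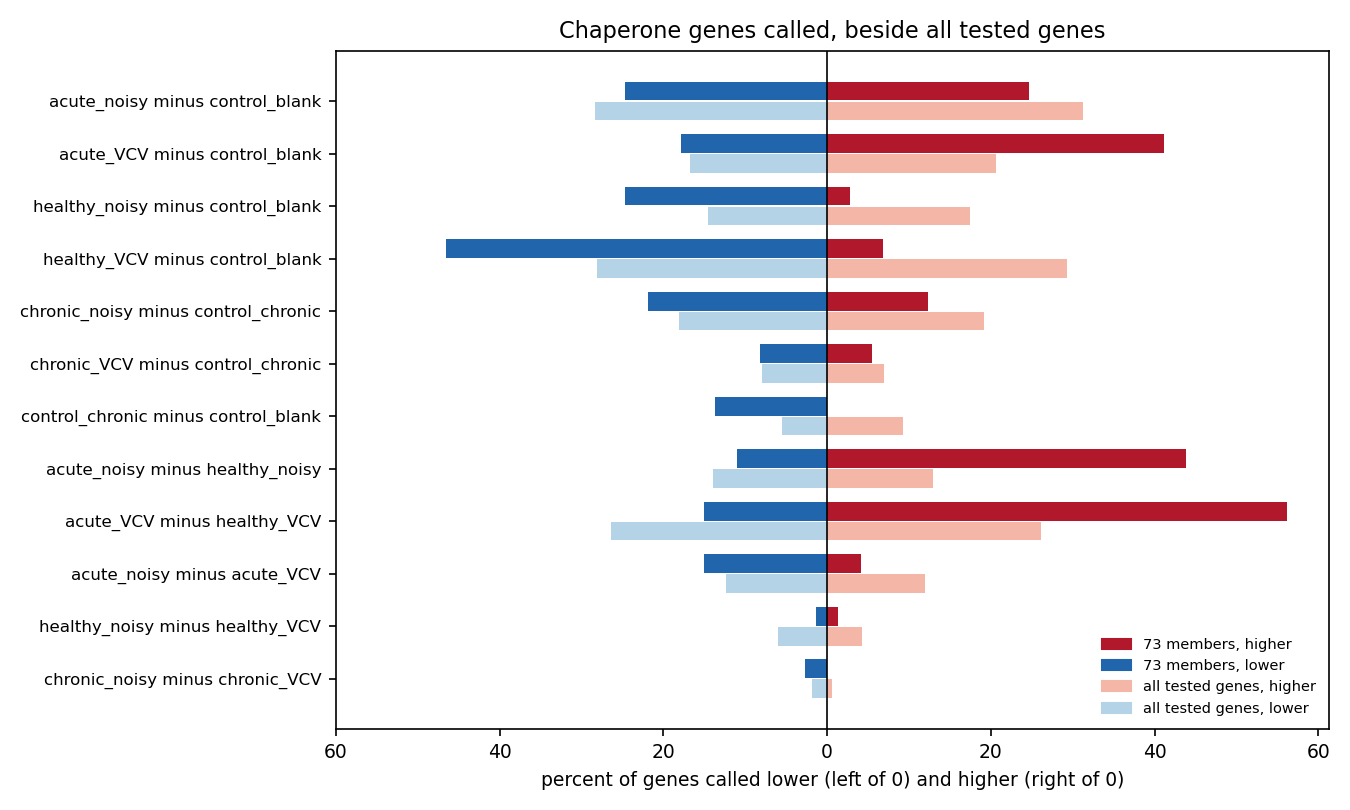
Percent of genes called lower (left of 0) and higher (right of 0) in each of 12 comparisons, with the 73 members in dark bars and all 14908 tested genes in light bars; called means a limma adjusted p under 0.05. The dark bars reach furthest to the right in acute_VCV against healthy_VCV (41 of 73) and furthest to the left in healthy_VCV against control_blank (34 of 73).

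Among the HSP70 and HSP110 genes, Hspa1a, the stress-inducible cytosolic HSP70, had the highest log2 difference of all 73 members in each comparison of an acutely injured group with control_blank or with healthy lungs in the same mode. It measured 27186, 37008 and 48017 normalised reads in acute_VCV lungs, against 8327, 2284, 2890 and 2049 in healthy_VCV lungs. In acute_noisy lungs it measured 8728, 78095, 41375 and 10689, against 1902, 1462 and 2221 in healthy_noisy lungs. Neither pair of groups overlapped, and within acute_noisy the 2 high values were those of series 14. The log2 difference was 3.48 ± 0.81 (adjusted p = 0.001) for acute_VCV over healthy_VCV, an 11.2-fold change, and 3.67 ± 0.81 (adjusted p = 0.0033) for acute_noisy over healthy_noisy, and both calls held without any 1 library. Within series 15 alone the noisy difference was 2.40 (adjusted p = 0.021), and Hspa1a was the 1 member called there. With the number series as a covariate it was 2.75 (adjusted p = 0.051).

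The unventilated libraries did not have 1 common Hspa1a level. Control_blank libraries 016, 021 and 074 read 14350, 1302 and 10773, and control_chronic libraries 1395, 761, 1007, 887 and 1738. Libraries 016 and 074 of control_blank therefore lay above every control_chronic, healthy and chronic_noisy lung. Acute_VCV exceeded control_blank by 2.64 ± 0.87 (adjusted p = 0.02), and acute_noisy by 1.999 ± 0.81 (adjusted p = 0.037). The acute_VCV call was lost without acute_VCV_045, acute_VCV_049 or control_blank_021, where the difference ran down to 1.55, and the acute_noisy call without acute_noisy_047, acute_noisy_050 or control_blank_021, where it ran down to 0.91. Control_chronic was lower than control_blank by -2.41 ± 0.78 (adjusted p = 0.04), a call lost without 7 of the 8 libraries (all but control_blank_021). Chronic_VCV measured 25888, 1886 and 2635 against those control_chronic values, so 1 library, chronic_VCV_067, was far above its group, and the difference of 2.19 ± 0.78 had an adjusted p of 0.058. Hspa1a has a near-identical copy in the rat, Hspa1b, and overlaps Hspa1l, so the copy that gave these reads is uncertain.

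**Figure D2:**
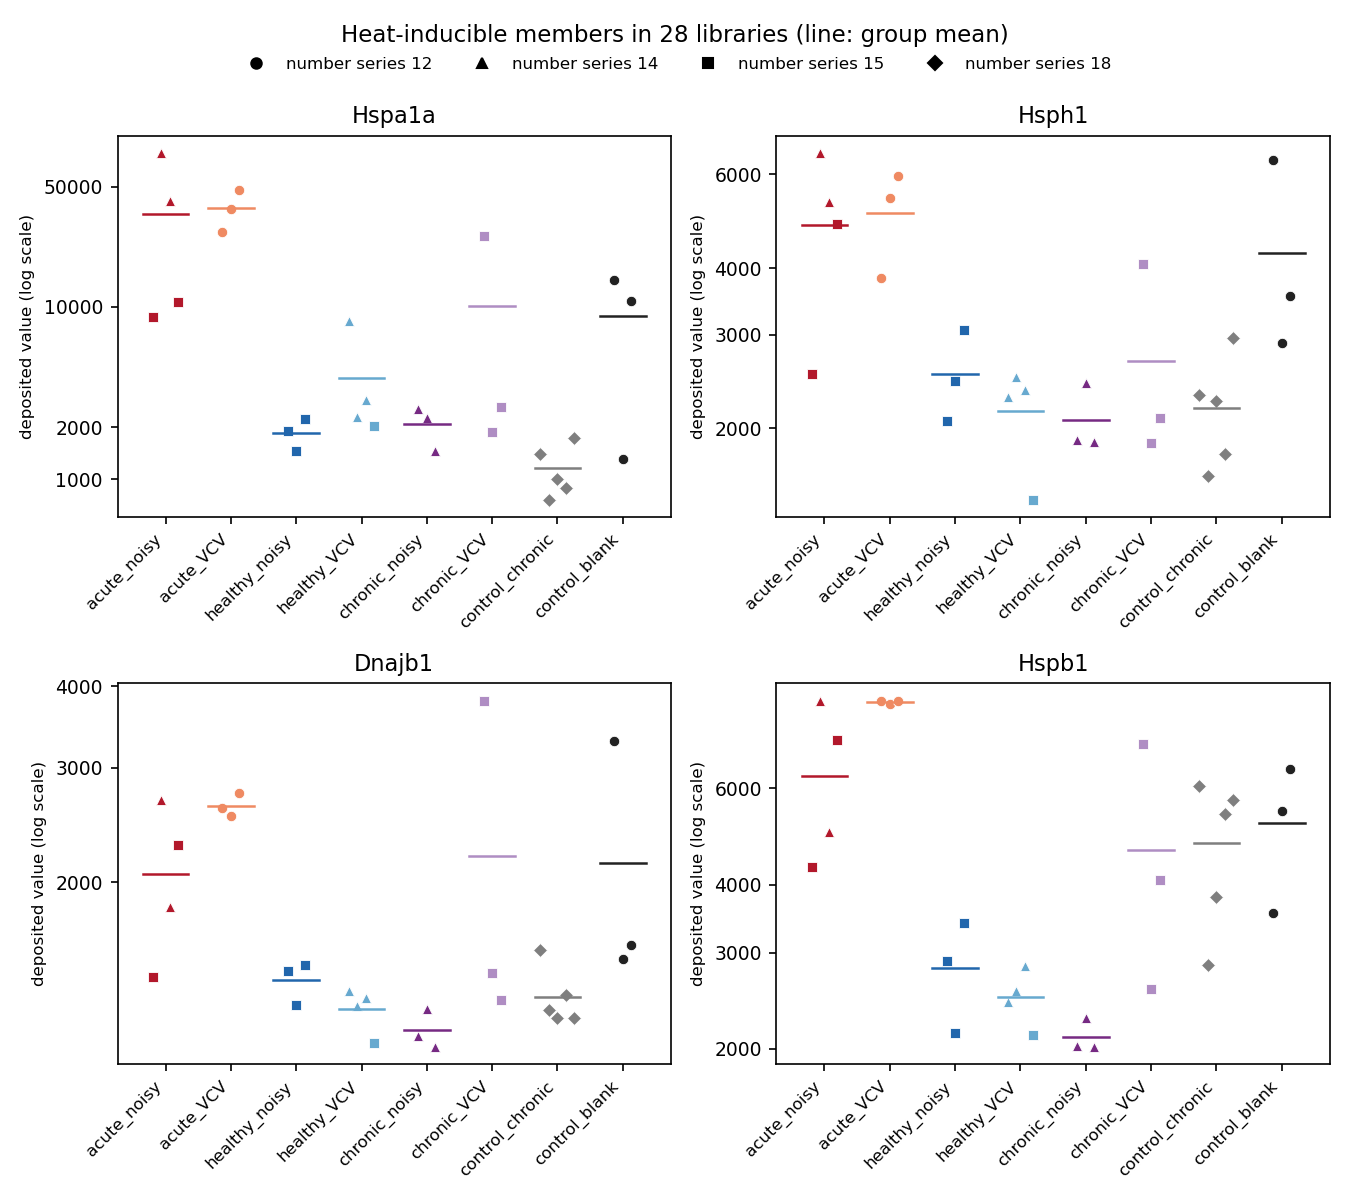
Normalised reads (log axis) of Hspa1a, Hsph1, Dnajb1 and Hspb1 in each of the 28 libraries by group; marker shape is the number series and the line is the group mean. Hspa1a spans 761 to 78095, with the acute_VCV libraries and both series 14 acute_noisy libraries at the top and chronic_VCV_067 far above the rest of its group.

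Hsph1, the HSP110 that exchanges nucleotide for HSP70, moved less. It read 3840, 5415 and 5956 in acute_VCV lungs, against 2285, 2501, 2357 and 1469 in healthy_VCV lungs, with no overlap and a difference of 1.24 ± 0.31 (adjusted p = 0.0018). Against control_blank, which read 6377, 2896 and 3551, acute_VCV overlapped and the difference was 0.31 ± 0.33 (adjusted p = 0.49). Healthy_VCV was lower than control_blank by -0.94 ± 0.31 (adjusted p = 0.013), a call lost without healthy_VCV_062 or control_blank_016, where the adjusted p reached 0.14. Hspa9, the mitochondrial HSP70, was called higher in both acute groups, against control_blank and against healthy lungs in the same mode. Its values were 2745, 5596, 5409 and 2263 in acute_noisy and 2986, 3430 and 4461 in acute_VCV, against 1678, 1279 and 1988 in control_blank. Both acute groups lay wholly above control_blank, by 1.19 ± 0.24 (adjusted p = 0.00021) and 1.14 ± 0.26 (adjusted p = 0.0013), and both calls held without any 1 library. Within acute_noisy the 2 high values were those of series 14, and series 15 minus series 14 was -1.142. In series 15 alone Hspa9 was not called between acute_noisy and healthy_noisy. The call of acute_VCV over healthy_VCV (0.66 ± 0.24, adjusted p = 0.024) was lost without acute_VCV_049 or healthy_VCV_057 (adjusted p up to 0.13). Over all HSP70 and HSP110 genes, 5 of 10 were higher and 2 lower in acute_VCV against healthy_VCV (26.1% and 26.4% of all genes). In acute_noisy against healthy_noisy 6 were higher and 0 lower (12.9% and 13.9% of all genes).

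The J-domain partners of inducible HSP70, Dnajb1 and Dnaja1, separated acute_VCV from healthy_VCV but not from control_blank. Dnajb1 read 2599, 2532 and 2742 in acute_VCV lungs, against 1363, 1292, 1331 and 1134 in healthy_VCV lungs and 3293, 1526 and 1601 in control_blank lungs. The difference was 1.04 ± 0.27 (adjusted p = 0.0025) from healthy_VCV and 0.39 ± 0.29 (adjusted p = 0.3) from control_blank. Dnaja1, whose motif is shown above, read 4362, 5815 and 6194 in acute_VCV, against 3431, 3357, 3143 and 2603 in healthy_VCV. Its difference of 0.79 ± 0.28 (adjusted p = 0.021) was lost without acute_VCV_045, acute_VCV_049 or healthy_VCV_062, where the adjusted p reached 0.081. In 2 other groups a single library stood high for both genes. Chronic_VCV_067 held 3804 of Dnajb1 and 8650 of Dnaja1, against at most 1452 and 3490 in the rest of its group, and control_blank_016 held 3293 and 9252, against at most 1601 and 4587.

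Bag3, the BAG protein that links HSP70 to small heat shock proteins and autophagy, was higher in acute_VCV lungs (2522, 2929 and 2523) than in control_blank lungs (2021, 1170 and 947). The groups did not overlap, and the difference of 1.02 ± 0.23 (adjusted p = 0.0013) was matched by 1.01 ± 0.21 (adjusted p = 0.00039) over healthy_VCV. Both calls held without any 1 library. Acute_noisy (1627, 2771, 2173 and 2159) was higher than control_blank by 0.71 ± 0.21 (adjusted p = 0.0063), lost without control_blank_074 (adjusted p = 0.068). Dnajb5, a Hsp40 of the same subfamily as Dnajb1, followed a similar order, with 925, 896 and 1024 in acute_VCV against 616, 599 and 408 in control_blank. It was higher there by 0.83 ± 0.18 (adjusted p = 0.001). It was also higher in chronic_VCV (862, 531 and 547) than in control_chronic (429, 399, 335, 379 and 322), by 0.77 ± 0.16 (adjusted p = 0.0032), and both calls held without any 1 library.

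Bag1 and Bag2 were the BAG genes with the clearest separation between injury states. Bag2, an inhibitor of the ubiquitin ligase CHIP, read 335, 257 and 294 in acute_VCV lungs, against 67.1, 75.2, 74.5 and 79 in healthy_VCV lungs, a 3.94-fold difference (log2 1.98 ± 0.19, adjusted p = 4.4e-08). Control_blank lay between them at 168, 119 and 114.2, so acute_VCV was higher than control_blank by 1.15 ± 0.20 (adjusted p = 0.00015) and healthy_VCV lower than it by -0.83 ± 0.19 (adjusted p = 0.00081). Bag1, a nucleotide exchange factor that ties HSP70 to the proteasome, followed the same order, with 2647, 3187 and 3036 in acute_VCV and 1252, 1346, 1357 and 1190 in healthy_VCV, against 2066, 2313 and 1988 in control_blank. Acute_VCV was higher than healthy_VCV by 1.198 ± 0.13 (adjusted p = 1.1e-07). These calls held without any 1 library.

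Both genes of the mitochondrial chaperonin, whose promoter is shown above, were higher in acutely injured lungs than in healthy lungs ventilated in the same mode. Hspe1, the lid, read 3176, 3764 and 4109 in acute_VCV lungs, against 968, 924, 995 and 893 in healthy_VCV lungs. In acute_noisy lungs it read 1798, 3036, 2734 and 1698, against 943, 1034 and 1312 in healthy_noisy lungs. No groups overlapped in either pair, and the differences were 1.95 ± 0.18 (adjusted p = 2.4e-08) and 1.05 ± 0.18 (adjusted p = 0.00057), both held without any 1 library. Hspd1, the barrel, read 3287, 3994 and 4570 in acute_VCV lungs, against 1346, 1426, 1396 and 1200 in healthy_VCV lungs (1.55 ± 0.21, adjusted p = 2.7e-06). In acute_noisy it read 1840, 3941, 3903 and 1984, against 1181, 1384 and 1399 in healthy_noisy (1.05 ± 0.21, adjusted p = 0.0017). In series 15 alone the Hspe1 difference was 0.69 (adjusted p = 0.29), and neither gene was called there.

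Control_blank lungs lay between acute_VCV and healthy_VCV lungs for both chaperonin genes, and overlapped acute_noisy. Hspe1 stood at 2456, 1926 and 1507.5 in control_blank and Hspd1 at 2699, 2018 and 1797, with the highest value in control_blank_016. Acute_VCV was higher than control_blank by 0.93 ± 0.19 for Hspe1 (adjusted p = 0.00056) and 0.87 ± 0.22 for Hspd1 (adjusted p = 0.004), within number series 12. Healthy_VCV was lower by -1.03 ± 0.18 for Hspe1 (adjusted p = 4.6e-05) and by -0.68 ± 0.21 for Hspd1 (adjusted p = 0.0087). The Hspd1 call was lost without control_blank_016 (difference -0.51, adjusted p = 0.078), while that of Hspe1 held. The 2 ventilation modes differed in acute injury for Hspe1, which was lower in acute_noisy than in acute_VCV by -0.71 ± 0.18 (adjusted p = 0.0082). For Hspd1 that difference was -0.52 ± 0.21 (adjusted p = 0.074). In chronic injury Hspe1 read 943, 1057 and 862 in chronic_noisy, against 1458, 1316, 1202, 1445.1 and 1238 in control_chronic. It was lower by -0.48 ± 0.17 (adjusted p = 0.029), with the call lost without chronic_noisy_075, chronic_noisy_084, control_chronic_113 or control_chronic_116 (adjusted p up to 0.13). From a list of 10 mitochondrial members 8 were found. Of these, 7 were higher and 1 lower in acute_VCV against healthy_VCV (26.1% and 26.4% of all genes). In acute_noisy against healthy_noisy 5 were higher and 1 lower (12.9% and 13.9%).

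**Figure D3:**
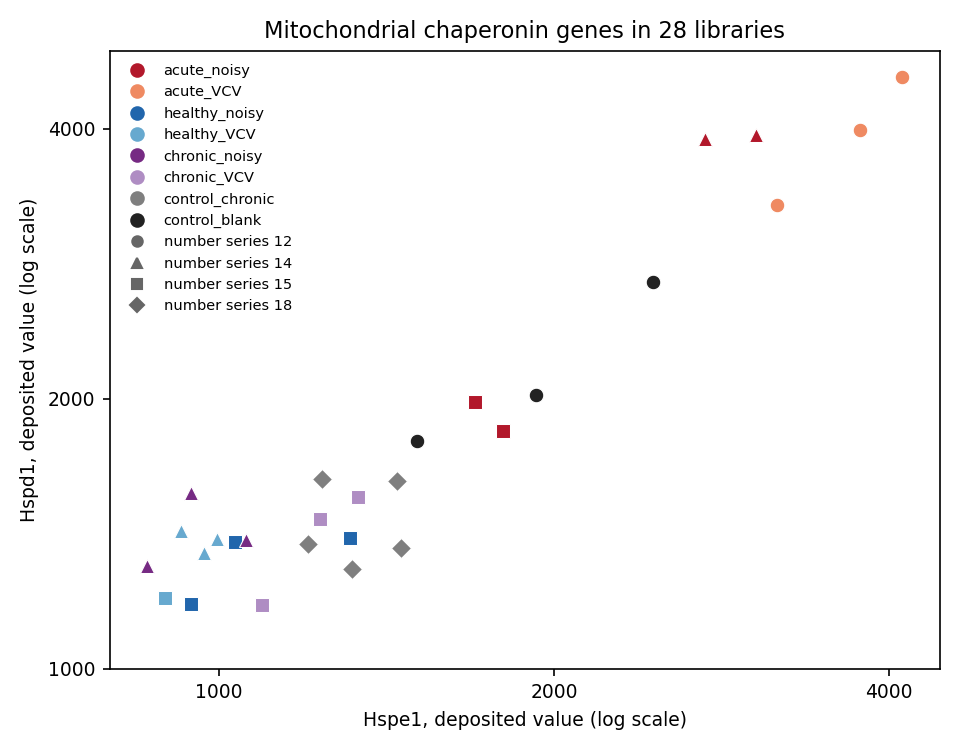
Normalised reads of Hspe1 (x, log axis) and Hspd1 (y, log axis) in each of the 28 libraries, coloured by group. The acute_VCV libraries and both series 14 acute_noisy libraries lie at the upper right, the 2 series 15 acute_noisy libraries lie among the control_blank libraries, and the healthy and chronic libraries lie at the lower left.

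The 8 subunits of the CCT ring moved together between acutely injured and healthy lungs. All 8 were higher in acute_VCV than in healthy_VCV, by 0.44 to 1.16, where 26.1% of all genes were called higher. All 8 were called in every alternative processing tried for that comparison. Summed over the 8 genes, the ring read 34738 to 42334 in acute_VCV lungs, against 19732 to 22703 in healthy_VCV lungs. Cct3 read 5660, 5725 and 6078 in acute_VCV, against 2639, 2548, 2820 and 2419 in healthy_VCV (1.16 ± 0.15, adjusted p = 1e-06). In acute_noisy against healthy_noisy all 8 were higher as well (12.9% of all genes), with 6 to 8 called when 1 library was left out. The acute_noisy sums were 27424 and 26596 in the 2 series 15 libraries and 41758 and 38700 in the 2 of series 14, against 21150 to 23076 in healthy_noisy. Within series 15 none of the 8 was called, and with the number series as a covariate 3 were.

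Against unventilated lungs the ring showed smaller differences, with control_blank_016 again the highest of its group at 31540 against 25618 and 26848. Acute_VCV had 5 of 8 subunits higher than control_blank (20.6% of all genes), and 3 to 6 when 1 library was left out. Acute_noisy had 3 of 8 (2 to 5), near the background of 31.3% of all genes. Cct6a, which makes the zeta subunit, was called on both: it read 1908, 3707, 3509 and 1763 in acute_noisy and 2354, 2904 and 3328 in acute_VCV, against 1742, 1376 and 1492 in control_blank. The differences were 0.75 ± 0.20 (adjusted p = 0.0032) and 0.89 ± 0.22 (adjusted p = 0.0028), held without any 1 library. Within acute_noisy the 2 high values were those of series 14, and series 15 minus series 14 was -0.975. The 2 series 15 libraries lay close to the highest control_blank value. Leaving out 1 library does not test that split. Healthy_VCV had 5 subunits lower than control_blank (28.1% of all genes), which fell to 2 without control_blank_016. Healthy_noisy had 4 (14.6% of all genes), which fell to 0 without control_blank_016 or healthy_noisy_029. Cct3, picked out after its values were seen, was higher than control_blank in both acute groups and lower in both healthy groups, but 3 of these 4 calls were lost when a single library was left out. That of acute_noisy was lost without acute_noisy_047, acute_noisy_050, control_blank_021 or control_blank_074 (difference down to 0.22, adjusted p up to 0.18). That of healthy_noisy was lost without healthy_noisy_029, healthy_noisy_061 or control_blank_016 (adjusted p up to 0.15), and that of healthy_VCV without control_blank_016 (adjusted p = 0.065). In chronic injury limma called 0 subunits in either direction for either mode, as did edgeR, with 1 of 8 in chronic_noisy and 0 in chronic_VCV at an unadjusted p under 0.05 (2 were lower in chronic_noisy under quantile normalisation). Of all tested genes, limma called 37.2% in chronic_noisy and 14.8% in chronic_VCV. The ring sums of 21919 to 23230 in chronic_noisy and 22402 to 23753 in chronic_VCV lay within or close to the 22227 to 24440 of control_chronic.

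**Figure D4:**
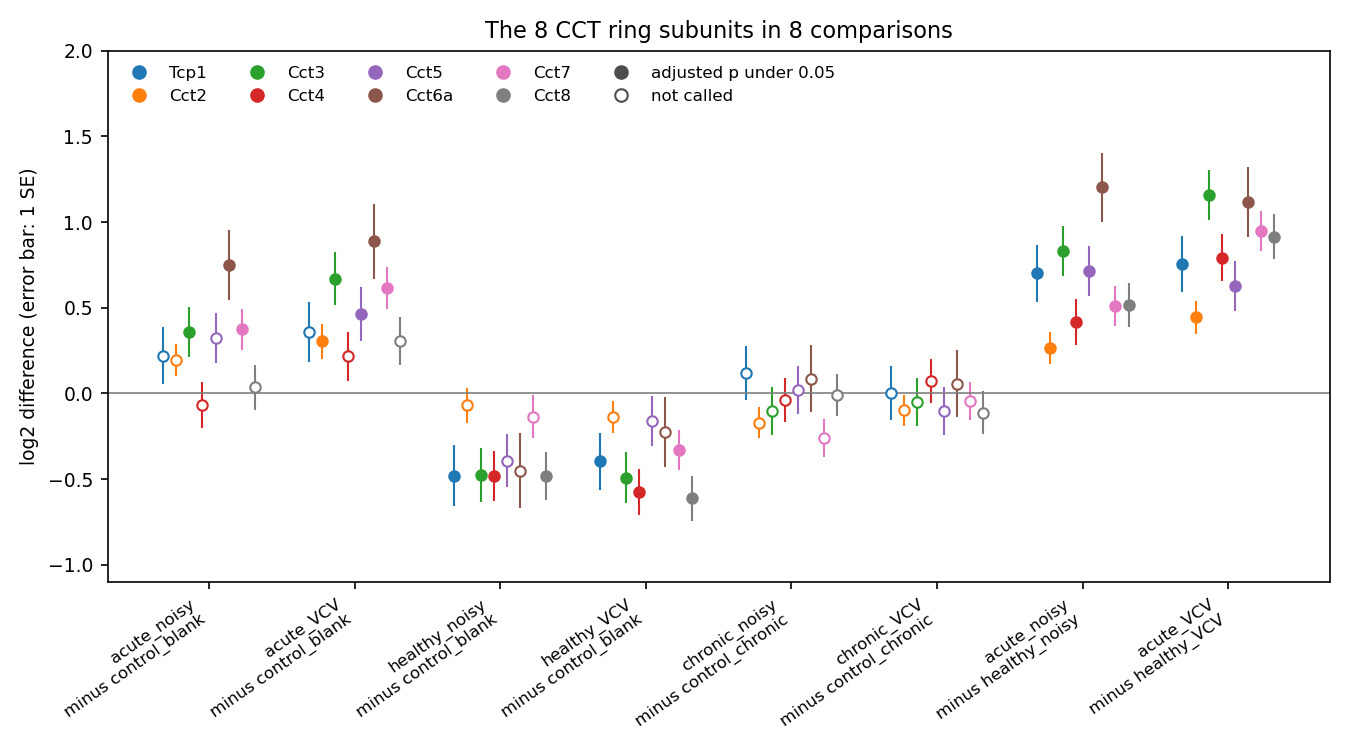
Log2 difference ± 1 standard error of the 8 CCT ring subunits in 8 comparisons; filled points have a limma adjusted p under 0.05. All 8 points are filled and above 0 for acute_VCV and acute_noisy against healthy lungs in the same mode, and the points lie around 0 for both chronic groups against control_chronic.

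Of 7 genes on a list of endoplasmic reticulum chaperones, 6 were found, and Dnajb11, Dnajc25 and Dnajc3 were higher than control_blank in both acute groups. In all, 5 of 6 were higher in acute_noisy and 3 in acute_VCV than in control_blank, with 0 lower in either, where 31.3% and 20.6% of all tested genes were higher. In acute_VCV against healthy_VCV 3 were higher and 2 lower (26.1% and 26.4% of all genes). Dnajb11, a J-domain partner of the lumenal HSP70, read 2392, 2921, 3147 and 2698 in acute_noisy and 2706, 3196 and 3445 in acute_VCV, against 1701, 1813 and 1770 in control_blank. All 7 acute lungs lay above all control_blank lungs, by 0.66 ± 0.13 (adjusted p = 0.00012) and 0.82 ± 0.13 (adjusted p = 7.1e-05). Dnajc25 read 239.9, 446, 414 and 224 in acute_noisy and 344, 356 and 384 in acute_VCV, against 143, 140.5 and 145 in control_blank (1.14 ± 0.21 and 1.33 ± 0.22, adjusted p = 7.4e-05 and 7.9e-05). These calls held without any 1 library. For Dnajb11 the differences of healthy_VCV and healthy_noisy from control_blank were -0.25 ± 0.13 and -0.03 ± 0.13 (adjusted p = 0.094 and 0.9).

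Dnajc3, a J-domain co-chaperone of the lumen that also inhibits a stress kinase, was higher in chronic_noisy and in both acute groups, with calls that held without any 1 library. It read 1485, 1392 and 1609 in chronic_noisy lungs, against 693, 609, 694, 728 and 897 in control_chronic lungs, with no overlap (1.05 ± 0.21, adjusted p = 0.00069). In acute_noisy it read 1389, 2362, 2370 and 1246 and in acute_VCV 1454, 1817 and 2041, against 865, 855 and 1297 in control_blank, with differences of 0.84 ± 0.21 and 0.83 ± 0.23 (adjusted p = 0.0019 and 0.0066). In chronic_VCV (699.5, 933 and 1197) its difference from control_chronic was 0.36 ± 0.21 (adjusted p = 0.25). Hspa13, a microsome-associated HSP70 relative, was also higher in chronic_noisy (423, 479 and 597) than in control_chronic (159, 202, 223, 118 and 257), by 1.41 ± 0.35 (adjusted p = 0.0037). The libraries with Hspa13 above 400 were all those of series 14, together with healthy_VCV_062 of series 15 at 408, so its group differences cannot be told apart from the number series.

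The cytosolic HSP90 genes were called seldom. Hsp90ab1, the constitutive HSP90, was called in none of the 13 comparisons by limma and had no unadjusted p under 0.05 (0 of 13). It read 17586, 38808, 28594 and 25581 in acute_noisy and 20527, 24221 and 26161 in acute_VCV, against 29506, 24403 and 23632 in control_blank. Hsp90aa1, the inducible HSP90, was called higher in acute_noisy (2929, 10641, 7742 and 2718) than in healthy_noisy (1522, 1587 and 2799), by 1.42 ± 0.38 (adjusted p = 0.0099). That call was lost without acute_noisy_047, healthy_noisy_029 or healthy_noisy_061 (adjusted p up to 0.055), and the groups overlapped. Acute_VCV (2490, 3773 and 5300) and healthy_VCV (3532, 3805, 3682 and 2369) overlapped for Hsp90aa1, with a difference of 0.16 ± 0.38. The lumenal HSP90, Hsp90b1, read 15532, 25632, 26818 and 17812 in acute_noisy, against 13683, 13383 and 14630 in control_blank (0.59 ± 0.20, adjusted p = 0.016), lost without acute_noisy_047 or acute_noisy_050 (adjusted p up to 0.064).

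The genes with small heat shock protein names did not move as 1 group. Hspb1 (HSP27), which binds unfolding proteins and actin filaments, read 8691, 8556 and 8688 in acute_VCV lungs, against 2434.4, 2556, 2831 and 2122 in healthy_VCV lungs, a difference of 1.81 ± 0.29 (adjusted p = 2.4e-05). In acute_noisy it read 4310, 8657, 4992 and 7365, against 2903, 2136 and 3404 in healthy_noisy (1.14 ± 0.29, adjusted p = 0.0083), a call lost without healthy_noisy_061 (difference 0.95, adjusted p = 0.061). Control_blank, at 3548, 5461 and 6523, lay between acute_VCV and healthy_VCV and overlapped acute_noisy. Healthy_VCV was lower than it by -1.02 ± 0.29 (adjusted p = 0.005), and acute_VCV differed from it by 0.78 ± 0.31 (adjusted p = 0.052). In chronic injury Hspb1 read 2021, 2277 and 2018 in chronic_noisy, against 6056, 2851, 3790, 5380 and 5713 in control_chronic, with no overlap. The difference of -1.12 ± 0.28 (adjusted p = 0.0041) held without any 1 library, while chronic_VCV spread over 7239, 2579 and 4079 and differed by -0.11 ± 0.28.

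Hspb2 and Hspb6, small heat shock proteins known from muscle, were lower in all 4 ventilated groups set against control_blank. Hspb2 read 95.6, 67.9, 38.8 and 89.2 in acute_noisy and 186, 96.3 and 104 in acute_VCV. It read 195, 200.2 and 98.2 in healthy_noisy and 121, 68.6, 86.7 and 98.7 in healthy_VCV, against 307, 363 and 312 in control_blank. Every ventilated lung of these 4 groups thus lay below every control_blank lung, with differences in the same order of -2.23, -1.40, -1.06 and -1.82 (adjusted p = 2.3e-06, 0.0012, 0.013 and 2e-05). The unventilated control_chronic lungs, at 203, 228, 210, 291 and 181, lay below every control_blank lung too, so a lower level was not particular to ventilated lungs. The healthy_noisy call was lost without healthy_noisy_078 (difference -0.72, adjusted p = 0.097). Hspb6 was lower by -1.42 in acute_noisy, -0.78 in acute_VCV, -0.71 in healthy_noisy and -0.74 in healthy_VCV (adjusted p = 1.9e-05, 0.014, 0.029 and 0.0079). The acute_VCV call was lost without acute_VCV_045, acute_VCV_049 or control_blank_021 (adjusted p up to 0.1), and that of healthy_noisy without healthy_noisy_029, healthy_noisy_078, control_blank_016 or control_blank_021 (adjusted p up to 0.13). For Hspb6 as well the control_chronic lungs (601, 660, 632, 740 and 676) lay below every control_blank lung (902, 995 and 746). Hspb2 overlaps Cryab, and Hspb6 overlaps Lin37.

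Hspb7, expressed mainly in heart, took another course. It read 695, 467 and 395 in acute_VCV lungs, against 189, 235, 159 and 127 in healthy_VCV lungs and 189, 258 and 331 in control_blank lungs. Acute_VCV was higher than healthy_VCV by 1.54 ± 0.29 (adjusted p = 0.00014), and control_chronic (114.4, 85.2, 72.6, 87.5 and 107) lower than control_blank by -1.45 ± 0.28 (adjusted p = 0.0038). Muscle marker levels differed between the groups as well, but did not go the same way as Hspb2 in every comparison. In chronic_noisy against control_chronic 3 of 6 cardiac markers were higher and 0 lower, while Hspb2 was lower by -0.89 (adjusted p = 0.016, and 0.064 without chronic_noisy_084). Hspb7 was not called there, but its difference of 0.48 went the same way as the cardiac markers. It read 111.95 to 165.18 in chronic_noisy, which overlapped the control_chronic values above. The summed level of the 6 cardiac muscle markers found of 8 was 231 to 8337 normalised reads in acute_noisy, 6061 to 14886 in acute_VCV, 328 to 1359 in healthy_noisy and 1739 to 9106 in healthy_VCV, against 9427 to 16874 in control_blank. It was 2013 to 7800 in chronic_noisy and 262 to 618 in chronic_VCV, against 880 to 1221 in control_chronic. The 3 smooth muscle markers found of 5 summed to 8048 to 15397 in acute_noisy, healthy_noisy and healthy_VCV and to 14274 to 24440 in acute_VCV, against 19130 to 30130 in control_blank. In unventilated control_chronic they summed to 6879 to 9907, and all 3 were called lower than in control_blank. The part of muscle tissue in the lobe pieces in these differences was not tested.

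Cct6b, Dnajb13 and Hspa12b were the 3 members lower in every ventilated group than in its unventilated control. Cct6b, a Cct6 paralogue known mainly from testis, read 55, 24.8, 27 and 24.4 in acute_noisy and 70.6, 51 and 47.7 in acute_VCV. It read 36.6, 45.8 and 30.7 in healthy_noisy and 90.3, 31, 72.7 and 75 in healthy_VCV, against 114.3, 196 and 188 in control_blank. In chronic injury it read 57.8, 73.6 and 77.9 in chronic_noisy and 50.5, 52.7 and 47.7 in chronic_VCV, against 124, 184, 154, 159.8 and 161 in control_chronic. No ventilated lung reached the lowest of its controls, the differences ran from -2.35 in acute_noisy to -1.16 in chronic_noisy (adjusted p from 2.3e-06 to 0.0045), and the 6 calls held without any 1 library. Cct6b overlaps Zfp830 in the annotation.

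Dnajb13, a J-domain protein of the radial spokes of motile cilia, read 208, 104, 97.8 and 291 in acute_noisy and 273, 219 and 272 in acute_VCV. It read 206, 333 and 339.6 in healthy_noisy and 236, 306, 198 and 194 in healthy_VCV, against 1037, 501 and 584 in control_blank. In chronic_noisy it read 240.2, 248 and 197 and in chronic_VCV 357, 204 and 148, against 591, 504, 667, 550.1 and 492 in control_chronic. None of the 20 ventilated lungs reached any unventilated one. The differences in the same order were -2.09, -1.40, -1.23, -1.55, -1.29 and -1.33 (adjusted p = 1.5e-05, 0.0029, 0.01, 0.00035, 0.0032 and 0.0062). The healthy_noisy call was lost without healthy_noisy_029 or control_blank_016 (adjusted p up to 0.085), and that of chronic_VCV without chronic_VCV_073 (adjusted p = 0.056). Hspb11, also named Ift25, a subunit of the intraflagellar transport complex rather than a chaperone, was lower than control_blank (232, 212 and 235) in acute_noisy (146, 68.7, 52.3 and 89.2) and acute_VCV (119, 80.3 and 87.6). The differences were -1.44 ± 0.26 (adjusted p = 6e-05) and -1.25 ± 0.27 (adjusted p = 0.001).

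Markers of ciliated cells were lower in ventilated lungs as well. Of 6 ciliated cell markers found of 7 listed, 5 or 6 were called lower in each of the 6 comparisons with unventilated lungs, and none stood at 0 in any library. Dnah5 was not lower in healthy_VCV, where it read 904, 1147, 785 and 623, against 603, 376 and 872 in control_blank. Their summed level was 811 to 2055 normalised reads in acute_noisy, 1407 to 2452 in acute_VCV, 2023 to 4615 in healthy_noisy and 2300 to 3595 in healthy_VCV, against 5281 to 11891 in control_blank. It was 2140 to 3303 in chronic_noisy and 1832 to 3418 in chronic_VCV, against 4554 to 7389 in control_chronic. The part of ciliated cells in the differences of Dnajb13, Cct6b and Hspb11 was not tested.

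**Figure D5:**
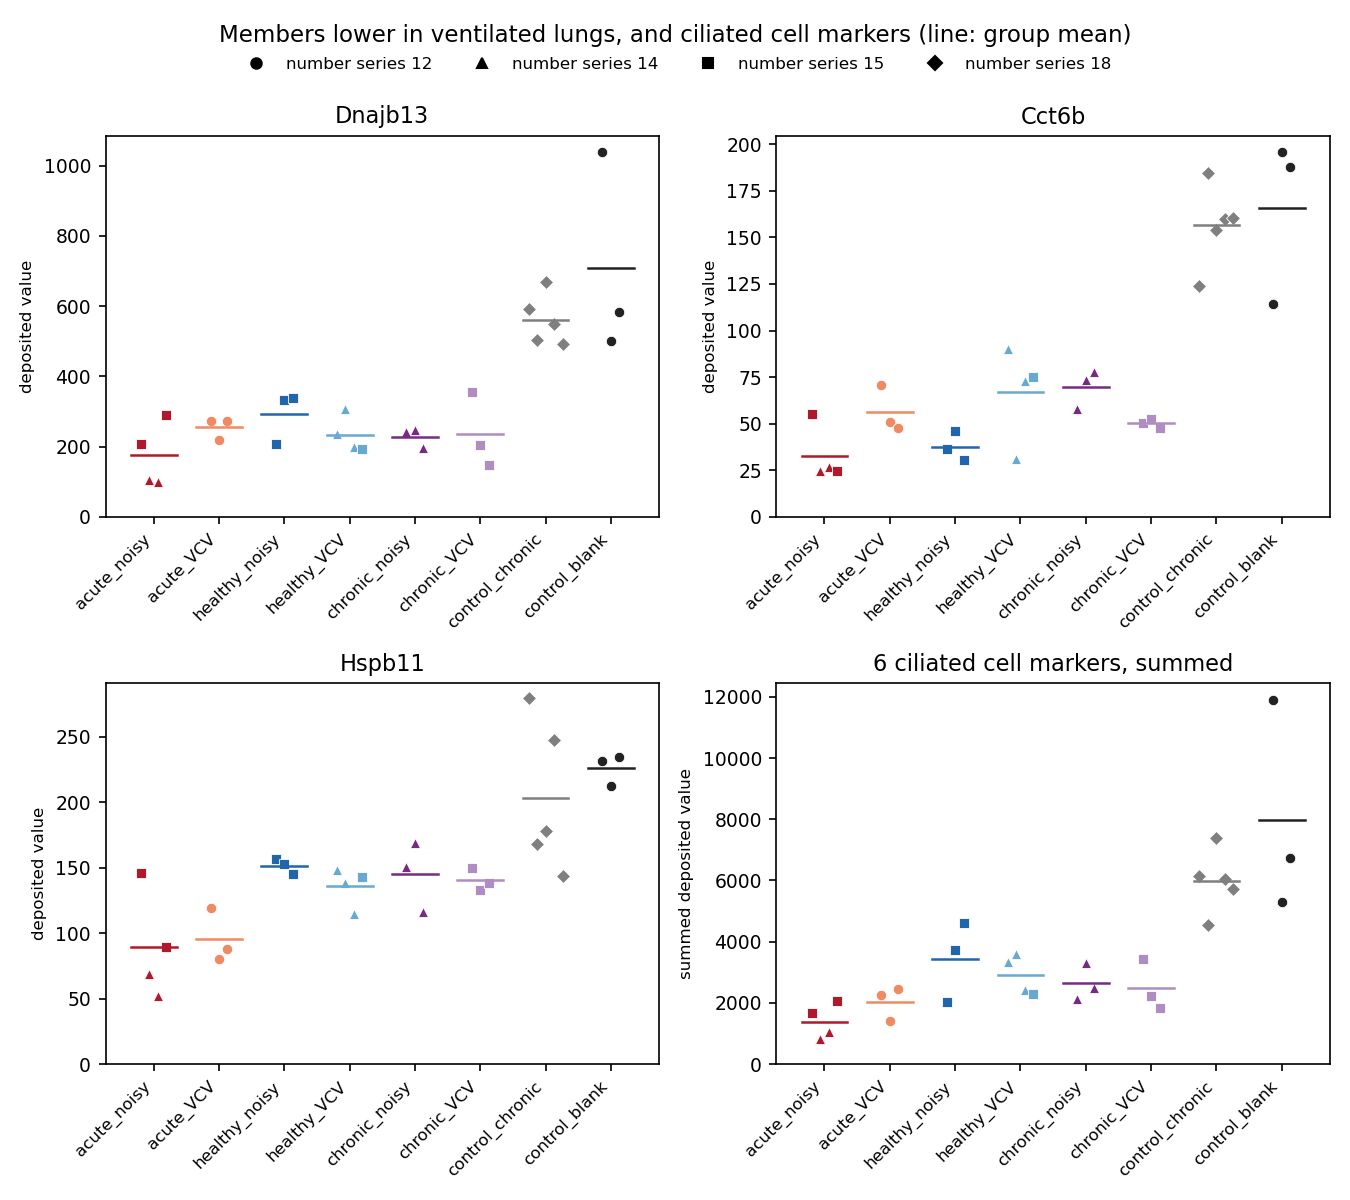
Normalised reads (linear axis from 0) of Dnajb13, Cct6b, Hspb11 and the sum of 6 ciliated cell markers in each of the 28 libraries by group, with the line at the group mean. The 8 unventilated libraries, at the right, lie above all 20 ventilated ones for Dnajb13 (492 to 1037 against at most 357).

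Hspa12b, a divergent HSP70 of endothelium, was lower by a smaller amount. It read 1621, 1868, 1569 and 2395 in acute_noisy and 2089, 1974 and 1375 in acute_VCV, against 2949, 2967 and 2665 in control_blank. Across the 6 comparisons its differences lay between -0.84 and -0.56, and the calls held without any 1 library but for chronic_VCV against control_chronic, lost without chronic_VCV_067 (difference -0.44, adjusted p = 0.068). Its relative Hspa12a was lower than control_blank (334, 517 and 566) in acute_noisy (257, 181, 129.9 and 219) and acute_VCV (182, 116.7 and 142), by -1.27 ± 0.26 (adjusted p = 0.00028) and -1.67 ± 0.28 (adjusted p = 9.2e-05). Neutrophil markers ran in the other direction: 4 of 5 were found, all 4 were higher in each of the 6 comparisons, and they summed to 16779 to 70209 in acute_noisy and 25811 to 94119 in acute_VCV, against 2368 to 2443 in control_blank. Of the endothelial genes among the lung markers, Cdh5 read 6133, 16103, 16091 and 6007 in acute_noisy and 3973, 8099 and 8706 in acute_VCV, against 545, 2690 and 4882 in control_blank. Pecam1 read 5491, 3238, 4310 and 6703 in acute_noisy and 10559, 9797 and 6327 in acute_VCV, against 8520, 11021 and 6722 in control_blank. The part of either cell type in the members' differences was not tested.

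Of the 34 J-domain genes, 19 were higher and 8 lower in acute_VCV against healthy_VCV, where 26.1% of all genes were higher and 26.4% lower. In acute_VCV against control_blank 14 were higher and 5 lower, where 20.6% of all genes were higher and 16.7% lower, so the lower counts were near the background in both. Dnajb3 and Dnajc28 lay at opposite ends of the comparison between acute_VCV and healthy_VCV. Dnajb3, an HSP40 whose gene lies within the Ugt1a cluster, read 93.9, 87.4 and 72.6 in acute_VCV, against 14.9, 6.58, 17.5 and 14.2 in healthy_VCV (2.65 ± 0.34, adjusted p = 1.4e-06). Dnajc28, which overlaps Son, read 12.8, 11.5 and 19 in acute_VCV, against 69.6, 53.5, 62.2 and 50.5 in healthy_VCV (-1.98 ± 0.26, adjusted p = 1.4e-06). Dnajc12, a co-chaperone of the aromatic amino acid hydroxylases, read 258, 204, 181 and 227 in acute_noisy and 198, 205 and 181 in acute_VCV, against 455, 380.0 and 351 in control_blank. Both acute groups lay wholly below it, by -0.86 ± 0.15 (adjusted p = 5.1e-05) and -1.01 ± 0.16 (adjusted p = 5.4e-05). These calls held without any 1 library.

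Dnajc5 and Dnajc16 were higher in acute_noisy and in healthy_VCV than in control_blank. Dnajc5, the cysteine string protein of secretory vesicles, read 911 and 840.1 in the 2 series 14 libraries of acute_noisy and 623 and 451 in the 2 of series 15, against 187, 225 and 332 in control_blank. Dnajc16 read 594 and 502 in acute_noisy_047 and acute_noisy_050 and 375 and 270.1 in acute_noisy_046 and acute_noisy_053, against 88.3, 112 and 201 in control_blank. Acute_noisy was higher than control_blank by 1.496 ± 0.24 (adjusted p = 1.9e-05) for Dnajc5 and by 1.72 ± 0.28 (adjusted p = 2.6e-05) for Dnajc16, and no library of the 4 overlapped with control_blank. Healthy_VCV was higher than control_blank by 1.44 ± 0.24 (adjusted p = 3e-05) and 1.63 ± 0.28 (adjusted p = 4.6e-05). Healthy_noisy, all of series 15, also lay wholly above control_blank. It read 455, 390 and 473 for Dnajc5 and 230, 247 and 311 for Dnajc16. A higher level was therefore not particular to groups that hold series 14 libraries. Series 15 minus series 14 was -0.72 for Dnajc5 and -0.78 for Dnajc16 within acute_noisy, and 0.002 and -0.10 within healthy_VCV.

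Noisy ventilation set directly against VCV, the comparison the study was built on, called few members. In healthy lungs 1 was higher and 1 lower (background 4.31% and 6.01%, or 10.3% either way). Dnajc7, a J-domain protein with TPR repeats, was higher by 0.40 ± 0.11 (adjusted p = 0.033) in healthy_noisy, and Hspa13 lower by -1.22 ± 0.36 (adjusted p = 0.041). Both calls were lost without any of 6 of the 7 libraries, the exception being healthy_noisy_078, without which 6 members were called. Chronically injured lungs gave 0 higher and 2 lower (background 0.563% and 1.86%, or 2.43% either way). Dnajb3 read 20.8, 13.5 and 8.75 in chronic_noisy, against 41.3, 24.3 and 51 in chronic_VCV (-1.40 ± 0.37, adjusted p = 0.043), and Dnajb2 read 1771, 1722 and 1377 against 3634, 2272 and 2441 (-0.75 ± 0.19, adjusted p = 0.041). The Dnajb3 call was lost without chronic_VCV_067, chronic_VCV_073, chronic_noisy_079 or chronic_noisy_084 (adjusted p up to 0.22), and that of Dnajb2 without any library but chronic_VCV_069 (adjusted p up to 0.25). Healthy_noisy is all of series 15 and healthy_VCV mostly of series 14, while chronic_noisy and chronic_VCV are wholly of series 14 and 15. With the number series as a covariate none of these 4 calls was left: the differences were 0.45 for Dnajc7, -0.55 for Hspa13, -1.54 for Dnajb3 and -0.49 for Dnajb2, with adjusted p of 0.32, 0.59, 0.24 and 0.51. That series effect could be estimated only from acute_noisy and healthy_VCV, the groups with both series. In chronic lungs mode and series coincide, so the loss of the Dnajb3 and Dnajb2 calls cannot tell mode from series.

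In acute injury 3 members were higher and 11 lower in acute_noisy than in acute_VCV (background 11.9% and 12.3%, or 24.2% either way). Members lower in acute_noisy whose calls held without any 1 library were Bag2, Bag1, Hspe1, Dnajc15 and Hspbp1. Bag2 read 133, 171, 158 and 182 in acute_noisy against the acute_VCV values above, lower by -0.87 ± 0.19 (adjusted p = 0.0041). Bag1 read 1673, 2385, 2113 and 1819 in acute_noisy, lower by -0.58 ± 0.13 (adjusted p = 0.0041). Hspbp1, which strips nucleotide from HSP70, read 957, 1496, 1342 and 1227 in acute_noisy, against 2253, 1948 and 2149 in acute_VCV (-0.77 ± 0.17, adjusted p = 0.0044). Dnajc15, a J-domain protein of the inner mitochondrial membrane, read 213, 339, 308 and 242, against 479.5, 393 and 498 (-0.75 ± 0.17, adjusted p = 0.0044). Hspa1a, Hsph1, Dnajb1, Hspb1 and Bag3 differed by -0.64 to -0.13 with adjusted p from 0.21 to 0.78. Without acute_VCV_040, 5 members were called in all, and 9 without acute_VCV_045 or acute_noisy_050. A fit of just these 2 groups called 0 by limma, and 14 had an unadjusted p under 0.05, and edgeR called 14, of which 5 were higher and 9 lower. The acute_VCV libraries are of series 12 and those of acute_noisy of series 14 and 15, so mode and number series cannot be told apart in acute injury.

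The difference between modes was tested for whether it differed with injury, as acute_noisy minus acute_VCV, less healthy_noisy minus healthy_VCV. That test called 7 members higher and 14 lower (background 19.6% and 19.4%, or 39% either way), so the members' share of 28.8% lay below that of all genes. Hspe1 was among those lower, at -0.91 ± 0.25 (adjusted p = 0.0069), since its 2 modes differed by -0.71 in acute injury and by 0.20 ± 0.18 in healthy lungs. Bag1 was lower by -0.78 ± 0.18 (adjusted p = 0.0019) and Dnajc17 by -1.49 ± 0.34 (adjusted p = 0.002). Among those higher, Hspa13 stood at 2.02 ± 0.51 (adjusted p = 0.0041) and Dnajc5 at 1.28 ± 0.34 (adjusted p = 0.0051).

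Other genes of the chaperone network, were taken from a list of 27, of which 24 were found. In acute_VCV against healthy_VCV 17 of 24 were higher and 0 lower (26.1% and 26.4% of all genes), and in healthy_VCV against control_blank 0 were higher and 19 lower (29.3% and 28.1%). In acute_VCV against control_blank their counts were near the background, with 5 higher and 4 lower (20.6% and 16.7% of all genes) and a median log2 difference of 0.028, against 0.304 for the members. In acute_noisy against control_blank 3 were higher and 7 lower (31.3% and 28.4%), with a median of -0.217, against 0.173 for the members. Stip1, the adaptor that joins HSP70 to HSP90, was higher in acute_VCV than in healthy_VCV by 1.02 and lower in healthy_VCV than in control_blank by -0.90. Hsf1, which encodes heat shock factor 1, was higher in acute_VCV than in healthy_VCV by 0.78 (adjusted p = 5.8e-05). Hmox1, the heme oxygenase also known as HSP32, was higher than control_blank by 2.15 ± 0.40 in acute_noisy and 2.55 ± 0.43 in acute_VCV.

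Of the 73 members, 8 were called in none of the 6 comparisons of a ventilated group with its unventilated control, at limma's adjusted p: Dnajb6, Dnajc18, Dnajc8, Hsp90aa1, Hsp90ab1, Hspa2, Hspb8 and Hspd1-ps2. None was higher in all 6. Taking the members by role against the healthy lungs of the same mode, the ring subunits and the mitochondrial pair were called higher in full in both modes. Of all tested genes, 26.1% were higher and 26.4% lower in VCV, and 12.9% and 13.9% in noisy mode. The HSP90 genes had 0 of 3 called in VCV and 2 of 3 higher in noisy mode, and the genes with small heat shock protein names had 3 of 8 higher and 0 lower in VCV against 2 higher and 3 lower in noisy mode. Those last counts were not compared by a test.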

How the data were processed

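Each of the 28 libraries was sequenced on an Illumina HiSeq from dUTP strand-marked, barcoded poly(A) RNA, per the labels' protocols. The deposited values are a signal: read counts per gene that the authors divided by 1 size factor per library, and at least 99.9765% of values were whole reads (within 0.1 read) once multiplied back. Genes carry Ensembl version 67 identifiers, per the labels. The submitters' processing notes list CASAVA 1.8.0, BWA, bedtools 2.11, DESeq 1.8.3 and build rn4, with no role given. Whether counting used the strand is not given in the sources used here, so genes that overlap another, 33 of the 71 members found in RefSeq by symbol, may share its reads.

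Groups came from the labels. A limma 3.58.1 model (R 4.3.3) of 8 group means on log2(value + 1), with trend and robust settings, was fitted to the 14908 genes with a mean of at least 10, with Benjamini-Hochberg adjustment over all of them and a threshold of 0.05. It was tested on simulated data. Each animal is 1 library. The p-values of this model rest on the spread between animals within groups, as 1 estimate per gene shared by all 8 groups and moderated across genes. They do not measure the spread of the compared groups alone. In acute_noisy and healthy_VCV, which hold libraries of more than 1 number series, that spread includes any difference between the series. Alternatives were a pseudocount of 10, no filter, quantile normalisation, no trend or robust setting, a fit limited to the groups compared, edgeR 4.0.16 (quasi-likelihood, TMM) on the recovered reads, the number series as a covariate, 1 number series alone, and each library left out. Acute_noisy split by number series was added after seeing the data. The text names 15 chosen symbols and, per comparison, the 5 called members with the highest and the 5 with the lowest log2 difference, where results turn on them. Members, gene lists and marker lists were chosen with earlier results of these data known. Tables were made in Python 3.11.15 (pandas 2.3.3, numpy 2.4.6) and figures in matplotlib 3.10.9. Promoters are RefSeq's, and the reference tables held no genome and no proteins.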

Additional observations from a re-analysis of the deposited data

Results flagged for a closer look

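Dixon's 95% limit was applied to the 52 named members in the groups of at least 4 libraries, which are acute_noisy, healthy_VCV and control_chronic. In 6 of the 156 gene-and-group pairs 1 library lay apart from the others of its group, and chance gives about 1 in 20. The groups of 3 libraries were not tested, among them chronic_VCV with chronic_VCV_067 and control_blank with control_blank_016. Hspa1a read 8326.97 in healthy_VCV_025, against 2048.99 to 2890.49 in the other 3 libraries of the group. Cct6b read 55.02 in acute_noisy_046, against 24.45 to 26.99. Dnajb2 read 3032.61 in acute_noisy_053, against 1767.96 to 1982.7. Dnajc16 read 504.67 in healthy_VCV_060, against 350.37 to 372.04. Hspa12a read 262.11 in healthy_VCV_057, against 418.81 to 437.35, and Dnajc7 read 2273.59 in control_chronic_117, against 2767.75 to 2878.79.

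The difference between noisy ventilation and VCV itself differed between acutely injured and healthy lungs for 21 members (28.8%, against 39% of all tested genes), by limma's adjusted p. Among the named ones it was higher in acute injury for Hspa13 (2.024), Dnajc16 (1.38), Dnajc5 (1.278), Dnajc28 (1.272) and Dnajb14 (1.227). It was lower for Hspb2 (-1.59), Dnajc17 (-1.491), Dnajb3 (-1.471), Dnajc4 (-0.98), Hspbp1 (-0.953) and Hspe1 (-0.907). The Dnajb3 call was lost without healthy_noisy_029, and that of Dnajc4 without acute_VCV_040, healthy_noisy_029 or healthy_noisy_061. The groups of this test come from different number series, so mode, injury and series cannot be told apart.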

How the results depend on the processing

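Of 263 calls of 51 named members none changed sign under 3840 alternatives. Most kept their call with a pseudocount of 10 (263), no filter (259), edgeR (255), no trend or robust setting (254) and quantile normalisation (245). Settings tried on part of the calls kept fewer: the number series as a covariate kept 9 and lost 27, and series 15 alone kept 1 and lost 31. With acute_noisy of series 15 alone 42 were kept and 53 lost, and with that of series 14 alone 86 were kept and 9 lost. A fit limited to the groups compared kept 172 and lost 91. It called 21 members in acute_noisy against control_blank, 9 in healthy_noisy against control_blank, 6 in chronic_VCV against control_chronic, 3 in control_chronic against control_blank, 0 in acute_noisy against acute_VCV (14 at an unadjusted p under 0.05), 12 in healthy_noisy against healthy_VCV, 0 in chronic_noisy against chronic_VCV (16 unadjusted) and 0 in acute_noisy against healthy_noisy (41 unadjusted). It has fewer samples to estimate the spread. With the number series as a covariate, 0 were called in healthy_noisy against healthy_VCV (17 unadjusted), 0 in chronic_noisy against chronic_VCV (24 unadjusted) and 10 in acute_noisy against healthy_noisy, and in series 15 alone 1 in the last. Acute_noisy of series 15 alone gave 20 against control_blank and 3 against healthy_noisy, and that of series 14 alone 25 against acute_VCV. Without control_chronic_113 and control_chronic_114 together, 6 were called in chronic_VCV against control_chronic and 2 in control_chronic against control_blank. In chronic_noisy against chronic_VCV edgeR and a fit with no trend or robust setting each called 1. In healthy_noisy against healthy_VCV quantile normalisation called 6 (4 higher, 2 lower). The causes of these shifts were not tested. Shares of all tested genes are not given beside these counts or the leave-one-out counts below. A fall in members called therefore cannot be told here from a fall over all genes. Quantile normalisation moved the median of all genes in healthy_VCV against control_blank from -0.027 to -0.128.

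With 1 library left out, the members called ranged from 33 to 42 in acute_VCV against control_blank, 29 to 44 in acute_noisy against control_blank, 23 to 42 in healthy_VCV and 10 to 21 in healthy_noisy against control_blank. They ranged from 5 to 9 in chronic_VCV and 10 to 25 in chronic_noisy against control_chronic, and 1 to 15 in control_chronic against control_blank. Between modes the ranges were 5 to 20 in acute injury, 0 to 6 in healthy and 0 to 5 in chronic lungs, and 15 to 25 for the difference of modes between injury states. Against healthy lungs in the same mode they were 43 to 49 for acute_VCV and 20 to 46 for acute_noisy. No paired analysis was possible because no animal number occurs in more than 1 group. Depth limits the members with the lowest means, Hspd1-ps2, Cct8l1 and Dnajb3, which had single libraries at 0 (Hspd1-ps2) or a few normalised reads.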
